A study of Mus musculus with 16 samples.

Results

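The genes described here carry the phosphocreatine and adenylate energy buffers and the oxygen store of muscle: the creatine kinases *Ckm*, *Ckb*, *Ckmt1* and *Ckmt2*, the AMP deaminases *Ampd1*, *Ampd2* and *Ampd3*, the adenylate kinase *Ak1*, myoglobin *Mb* and the creatine transporter *Slc6a8*. They were taken by symbol, and all 10 had a row among the 49585 genes of each count table. RNA-seq libraries had been made from C2C12 cells, mouse muscle precursors that fuse into multinucleate fibres in low-serum medium, in 2 experiments with 16 libraries in all. In the first, WT cells and AMPK-KO cells were harvested at day 0 (d0, myoblasts) and day 8 (d8) of differentiation, with 2 libraries in each of the 4 groups. The AMPK-KO cells lack both catalytic subunits, AMPKα1 (*Prkaa1*) and AMPKα2 (*Prkaa2*), after CRISPR/Cas9 targeting. The labels do not say which knockout clone or clones were sequenced. A figure of the study with RNA-seq signal shows 2 independent AMPK-KO lines, so the 2 AMPK-KO replicates may be different clones. In the second, all cells were AMPK-null and at d0. Both genotypes carried a FLAG-BirA tag on endogenous TET2 and, per the study, an EGFP coding sequence at the same locus. TET2 was either wild type (TET2-WT) or had serine 97 replaced by glutamate to mimic phosphorylation (TET2-S97E). Each genotype had 2 clones with 2 replicates per clone. No label says whether the replicates were separate cultures. The p-values thus measure the spread between these libraries, which may be technical or, for AMPK-KO, a difference between clones. Fewer cells of a type and less RNA per cell cannot be told apart in these bulk samples.

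Creatine kinase moves phosphate between ATP and creatine, and so holds ATP steady while muscle contracts. *Ckm* encodes the muscle cytosolic form, *Ckb* the brain form found in myoblasts, *Ckmt2* the sarcomeric mitochondrial form and *Ckmt1* the ubiquitous mitochondrial form. When ATP use outruns supply, adenylate kinase turns ADP into ATP and AMP, and AMP deaminase removes the AMP, the same nucleotide that activates AMPK. *Ampd1* is the form of skeletal muscle, *Ampd2* and *Ampd3* those first known from liver and red cells. Slc6a8 brings creatine into the cell, and myoglobin binds oxygen.

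On GRCm38, with GENCODE M21, the cytosolic kinases were *Ckm* on chromosome 7 (19404776 to 19422841, + strand, 10 merged exons) and *Ckb* on chromosome 12 (111669361 to 111672338, − strand, 2 merged exons). The mitochondrial kinases were *Ckmt1* on chromosome 2 (121357714 to 121363737, + strand) and *Ckmt2* on chromosome 13 (91853387 to 91876885, − strand). *Ampd1* (103074014 to 103099720, + strand) and *Ampd2* (108074062 to 108086651, − strand) lie on chromosome 3, and *Ampd3* (110768206 to 110812405, + strand) on chromosome 7. *Ak1* lies on chromosome 2 (32621758 to 32635058, + strand), *Mb* on chromosome 15 (77015487 to 77050670, − strand) and *Slc6a8* on chromosome X (73673150 to 73682502, + strand). Whether the counting used strand is not given in the sources used here. Without strand, reads of *Ckm* and its antisense neighbour *A930016O22Rik* cannot be told apart over 451 of the 2913 exon bases of *Ckm*, nor those of *Mb* and the antisense gene *Gm49540* over 412 of 1492, nor those of *Ampd2* and *Gm12500* over 434 of 5224.

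The sequences upstream of *Ckm*, *Mb* and *Ckb* are shown because the first pair rose together at d8. *Ckb*, the other abundant creatine kinase, did not pass the main test, although an alternative test called it in AMPK-KO. They are the 250 bases before the RefSeq start site (GRCm38.p6) that lies nearest to the start of the principal GENCODE transcript, which is 69 bases away for *Ckm* and at the same base for *Mb* and *Ckb*. They run over chr7:19410844-19411093 on the + strand for *Ckm*, chr15:77022788-77023037 on the − strand for *Mb* and chr12:111672339-111672588 on the − strand for *Ckb*. Capitals mark matches, on either strand, to the E-box CANNTG (with its forms CAGCTG and CACCTG), the MEF2 site, the CArG box, the MCAT element CATTCC, the ERR element AAGGTCA and the TATA box TATAAA.
Ckm: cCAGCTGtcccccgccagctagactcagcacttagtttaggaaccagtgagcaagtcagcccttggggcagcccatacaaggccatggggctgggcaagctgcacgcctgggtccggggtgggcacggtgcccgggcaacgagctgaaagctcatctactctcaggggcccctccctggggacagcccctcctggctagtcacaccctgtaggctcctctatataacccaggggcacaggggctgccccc
Mb: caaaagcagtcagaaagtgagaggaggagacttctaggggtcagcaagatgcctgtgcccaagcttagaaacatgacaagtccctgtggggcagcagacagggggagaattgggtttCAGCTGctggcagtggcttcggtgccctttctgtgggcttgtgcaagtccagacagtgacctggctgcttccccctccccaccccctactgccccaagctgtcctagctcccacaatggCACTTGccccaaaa
Ckb: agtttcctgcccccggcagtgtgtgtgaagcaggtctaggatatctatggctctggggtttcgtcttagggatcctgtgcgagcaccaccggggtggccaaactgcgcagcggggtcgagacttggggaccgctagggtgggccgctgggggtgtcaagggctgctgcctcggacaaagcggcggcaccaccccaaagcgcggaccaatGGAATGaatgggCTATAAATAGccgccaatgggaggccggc
The *Ckm* window held 1 E-box, CAGCTG, starting 249 bases before the start site. The *Mb* window held the same CAGCTG at 133 bases and a second CANNTG match at 14 bases. The *Ckb* window held no E-box. It held an MCAT element on the opposite strand at 41 bases and a MEF2 site at 29 bases, and the MEF2 match overlaps the TATA box TATAAA at 28 bases. Of the 32851 RefSeq promoter windows cut to the same 250 bases, 66.2% held CANNTG, 13.0% CAGCTG, 12.6% CATTCC, 12.4% TATAAA and 2.92% a MEF2 match. A match describes these letters and is not a measured binding site. RefSeq windows were found for 8 of the 10 genes, and *Ampd1* and *Slc6a8* were the genes without one.

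Total counts per library ran from about 17883400 to 24663100 in the first experiment and from about 19801900 to 37790400 in the second. Levels are given as CPM (counts scaled to the library total with TMM factors) when libraries are compared, and as TPM (counts per base of merged exon, scaled to the same total in each library) when genes are compared, and the tables were normalized separately. The order of genes by TPM and the creatine kinase shares rest on the merged exon lengths. For *Ckb* that length is 2895 bases in 2 merged exons and covers nearly all of the gene. If most *Ckb* transcripts are spliced shorter, its TPM is too low here, which was not tested. The targeted genes were read first. *Prkaa1* stood at 159 and 159 CPM in WT at d0 and at 79.7 and 78.0 CPM in AMPK-KO at d0, a log2 fold change of −1.01 ± 0.13 (SE, adjusted p = 0.0116). *Prkaa2* stood at 1.69 and 1.79 CPM in WT at d0 and 6.22 and 10.1 CPM at d8, and at 0.209 to 1.26 CPM in the 4 AMPK-KO libraries. In the TET2 libraries, all AMPK-null by label, *Prkaa2* was 0.454 to 1.73 CPM, highest in clone 2 replicate 2 of both genotypes, and *Prkaa1* 73.4 to 104 CPM. RNA levels do not show whether the remaining transcripts encode protein. *Tet2* was 34.3, 22.5, 58.4 and 56.4 CPM in the TET2-WT libraries and 12.9, 22.0, 7.88 and 22.1 CPM in the TET2-S97E libraries, without overlap (log2 fold change −1.40 ± 0.39, SE, adjusted p = 0.0621). All adjusted p-values are from the quasi-likelihood test of edgeR with Benjamini-Hochberg adjustment over all genes tested, and a gene was called at an adjusted p under 0.05.

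The labelled cell type was checked against markers. Of 20 skeletal muscle differentiation genes, 12 to 20 had more than 3 counts in each WT or AMPK-KO library and 15 to 19 in each TET2 library. Markers of other cell types were read as whole lists. Of 3 macrophage and leukocyte genes, *Adgre1* had no count in any library and *Ptprc* at most 1, while *Cd68* had 18 to 134. Of 2 endothelial genes *Pecam1* had at most 8 counts and *Cdh5* at most 43. Of 3 adipocyte genes *Adipoq* had at most 6, *Plin1* at most 9 and *Fabp4* at most 30. Of 4 neuron genes *Rbfox3* had at most 1 and *Snap25* at most 8, whereas *Tubb3* had 1351 to 4243 and *Map2* 575 to 948 in the WT libraries. Libraries stood apart within 3 groups. AMPK-KO d8 replicate 1 had a summed muscle gene level of 4709 CPM against 19181 CPM in replicate 2, and TET2-WT clone 2 replicate 2 had 1912 CPM against 954 to 1222 CPM in the other TET2-WT libraries. TET2-S97E clone 2 replicate 2 had 1376 CPM against 4171 CPM in the other library of its clone and 12776 and 6073 CPM in clone 1.

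In WT myoblasts *Ckb*, and not the muscle form *Ckm*, made up nearly all of the creatine kinase transcripts. By level *Ak1* led at 172 ± 16.9 TPM (SD, n = 2, as for all group values of the first experiment), followed by *Ckb* at 120 ± 46.7 TPM and *Slc6a8* at 99.1 ± 52.0 TPM, whose ranges overlapped. *Ampd2* stood at 37.2 ± 1.12 TPM and *Ampd3* at 25.3 ± 0.835 TPM, and these did not overlap. *Mb* (2.02 ± 0.521 TPM) and *Ckm* (1.20 ± 0.760 TPM) came next and overlapped each other. *Ampd1*, *Ckmt1* and *Ckmt2* had at most 3 counts in either library. At d8 the order in WT was *Ak1* (368 ± 1.65 TPM), *Mb* (360 ± 228 TPM), *Slc6a8* (161 ± 23.4 TPM), *Ckb* (154 and 164 TPM) and *Ckm* (79.5 ± 56.5 TPM), where *Ak1* overlapped *Mb* and *Slc6a8* overlapped *Ckb*. The order in AMPK-KO at d8 began with *Mb* (480 ± 487 TPM) and *Ckm* (303 ± 269 TPM), and the ranges of the first 4 genes overlapped from one to the next.

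**Figure D1:**
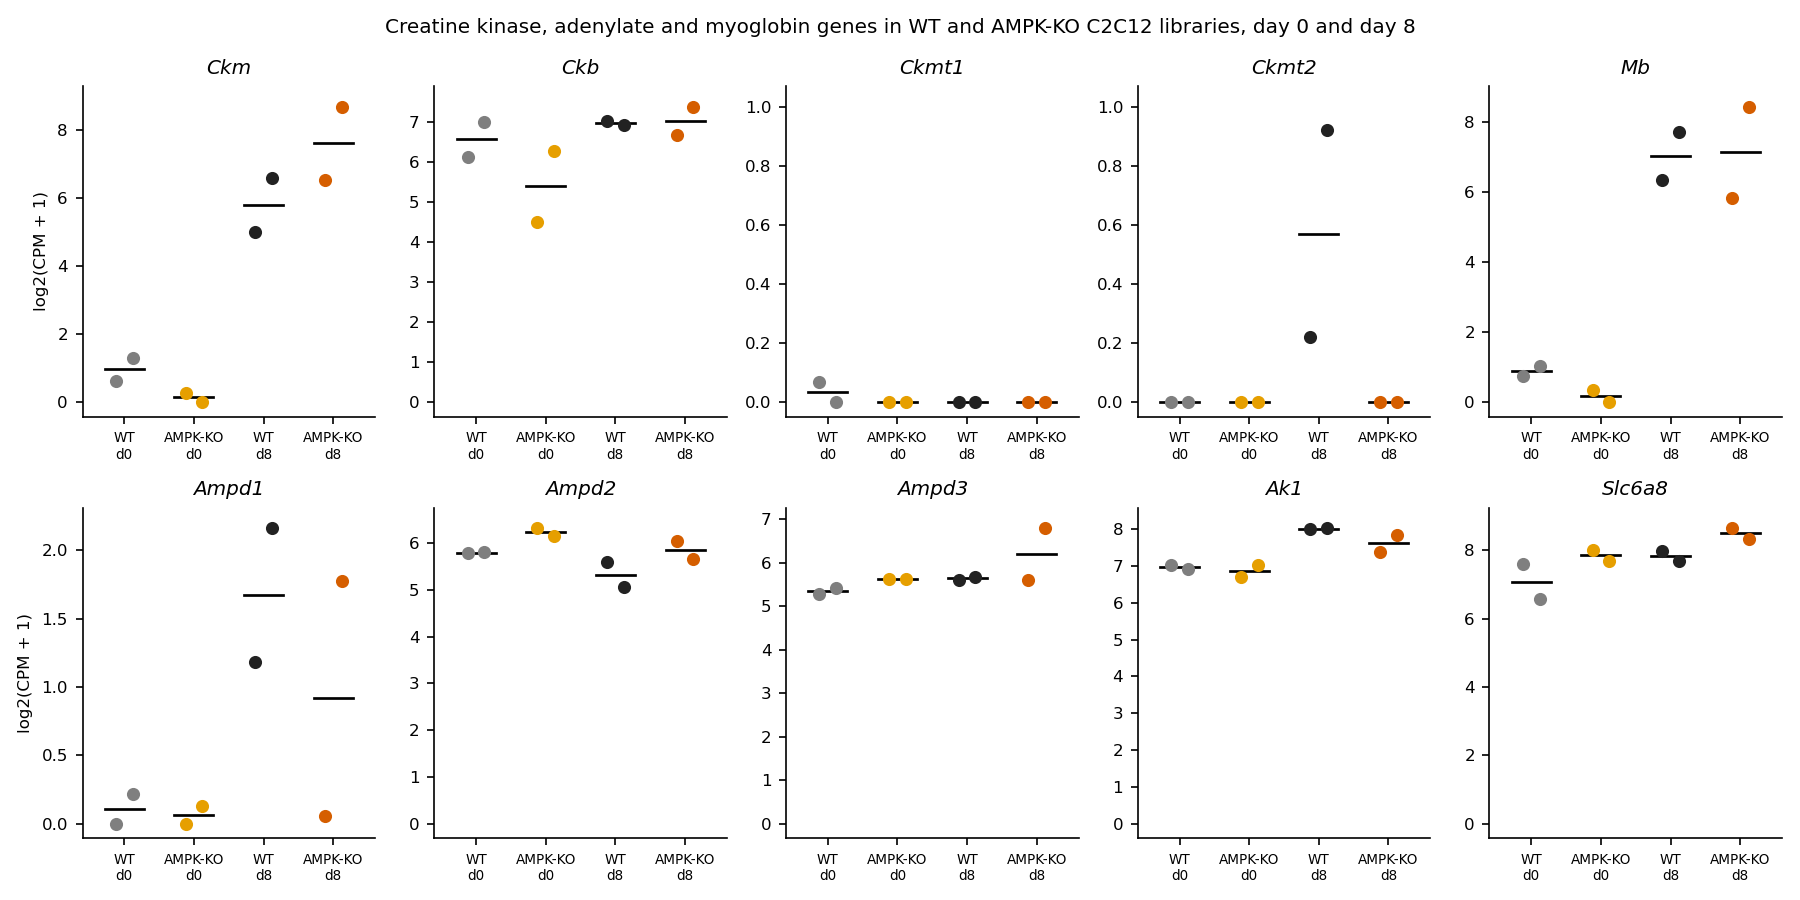
Level of each gene as log2(CPM + 1) in the 8 WT and AMPK-KO libraries; points are libraries, replicate 1 at the left, and lines are means of 2. *Ckm* and *Mb* lie near 0 at d0 and above 5 at d8 in every library, while *Ckb*, *Ampd2*, *Ampd3*, *Ak1* and *Slc6a8* stay between 4 and 9.

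The first comparison asks how the energy genes changed between myoblasts and d8. In WT cells 3 of the 8 genes that passed the filter on low counts were called, *Ckm*, *Mb* and *Ak1*, and all 3 rose. Of all genes tested, 12.4% were called, and 5.78% were called higher. The median log2 fold change of the 8 was 0.86, against 0.01 over all 14329 genes. *Mb* was 0.675 and 1.03 CPM at d0 and 80.0 and 212 CPM at d8, a 171-fold difference of the means (log2 fold change 7.42 ± 1.16, SE, adjusted p = 0.0149). *Ckm* was 0.531 and 1.46 CPM at d0 and 31.1 and 94.7 CPM at d8, 63.1-fold (5.99 ± 1.05, adjusted p = 0.0179). Both d8 libraries lay far above both d0 libraries for these genes, and replicate 2 was the higher at d8 for both. *Ak1* rose 2.07-fold, from 130 and 120 CPM to 257 and 261 CPM (1.05 ± 0.21, adjusted p = 0.0248). None of the 3 was called when WT d0 replicate 2, WT d8 replicate 1 or WT d8 replicate 2 was left out, settings in which at most 2 of all genes were called. Without WT d0 replicate 1 the *Ckm* call was lost as well (5.40, adjusted p = 0.0516), while *Mb* (adjusted p = 0.0400) and *Ak1* (adjusted p = 0.0459) were called.

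In AMPK-KO cells 2 of the 8 genes were called between d0 and d8, *Ckm* and *Mb*, both higher, against 9.76% of all genes called and 4.81% called higher. The median of the 8 was 1.11 and that of all genes 0.02. *Ckm* had 4 and 0 counts at d0, or 0.209 and 0 CPM, and 91.3 and 407 CPM at d8 (adjusted p = 0.0198). *Mb* had 5 and 0 counts at d0, or 0.262 and 0 CPM, and 56.4 and 349 CPM at d8 (adjusted p = 0.0209). Since the d0 levels rest on these few reads, the size of the change is known only loosely. The ratio of the pooled CPM was 2343 for *Ckm* (95% exact interval 915 to 8602) and 1511 for *Mb* (647 to 4654), and the intervals cover counting error only. In WT the same ratio was 67.9 for *Ckm* (49.4 to 96.2) and 181 for *Mb* (128 to 263). *Ak1* was 102 and 131 CPM at d0 and 166 and 230 CPM at d8 in AMPK-KO, without overlap (1.70-fold, adjusted p = 0.0617, or 0.0469 with a replicate block), and *Ckb* was 21.8 and 76.1 CPM at d0 and 102 and 166 CPM at d8 (2.73-fold, adjusted p = 0.152). Without AMPK-KO d8 replicate 1, the library with low muscle genes, 4 genes were called, *Ckm*, *Mb*, *Ak1* and *Ampd3*. Leaving out either AMPK-KO d0 library left none of the 8 called, in fits that called 0 and 1 of all genes, and *Ckm* stood at 10.2 and *Mb* at 9.57 without replicate 2.

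**Figure D2:**
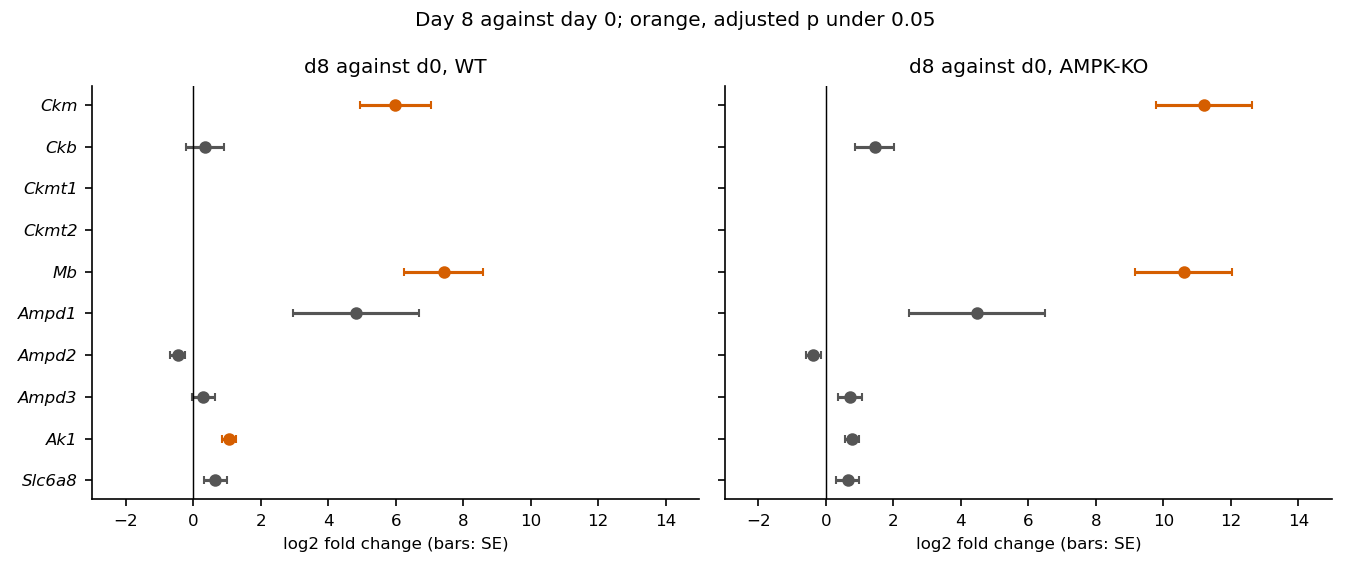
Fitted log2 fold change of d8 against d0, with SE bars, in WT (left) and AMPK-KO (right) cells; orange marks an adjusted p under 0.05. *Ckm* and *Mb* stand at 5.99 and 7.42 in WT and at 11.2 and 10.6 in AMPK-KO, where the d0 counts were 0 to 5; *Ckmt1* and *Ckmt2* were too low to be tested.

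*Ckb* did not pass the edgeR test between d0 and d8 in either genotype, while DESeq2 called it higher in AMPK-KO (1.46, adjusted p = 0.0309). The makeup of the creatine kinase transcripts was read within each library. In WT at d0 *Ckm* made up 0.762% and 1.13% of the summed creatine kinase TPM, and at d8 19.4% and 43.3%. In AMPK-KO it made up 0.947% and 0% at d0 and 47.2% and 70.9% at d8. *Ckb* made up nearly all of the rest, 98.9% to 100% at d0 in these 4 libraries. The summed creatine kinase level was 121 ± 47.4 TPM in WT at d0, 240 ± 50.8 TPM in WT at d8, 59.1 ± 47.5 TPM in AMPK-KO at d0 and 467 ± 323 TPM in AMPK-KO at d8. These shares are within libraries, they rest on the merged exon lengths, and no test was made on them.

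The mitochondrial kinases were close to absent. *Ckmt1* had at most 2 counts in any of the 16 libraries. *Ckmt2* had 3 and 19 counts in the WT d8 libraries, 0 counts in both AMPK-KO d8 libraries and 0 counts in all 4 libraries at d0. A count of 0 allows, as a one-sided 95% limit, up to 3 counts of the about 24663100 and 20925200 in the AMPK-KO d8 libraries, counting error only. Neither gene passed the filter, so no test was made.

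**Figure D3:**
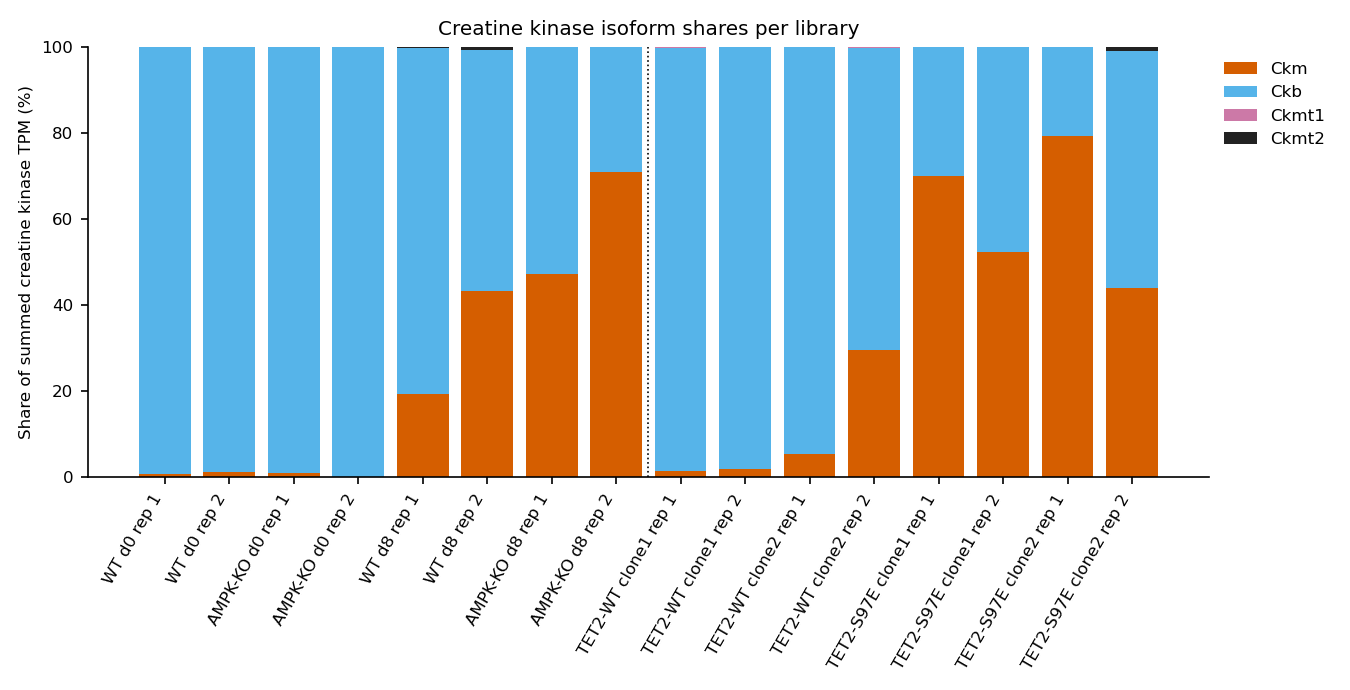
Share of each creatine kinase in the summed creatine kinase TPM of each of the 16 libraries (percent); the dotted line separates the experiments. *Ckm* takes about 1% or less in the d0 libraries of WT and AMPK-KO cells, 19.4% to 70.9% at d8, and 44.0% to 79.4% in the TET2-S97E libraries.

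Among the AMP deaminases, the muscle form *Ampd1* had 0 and 3 counts in WT at d0 and 23 and 74 at d8, at least 15.4-fold higher in CPM with d0 set to the floor of 3 counts in each library (adjusted p = 0.126 by edgeR, 0.0369 with the replicate block and 0.0298 by DESeq2). In AMPK-KO it had 0 and 2 counts at d0 and 1 and 50 at d8, so the groups overlapped in CPM. *Ampd2* was 54.3 and 54.9 CPM in WT at d0 and 47.4 and 32.3 CPM at d8 (adjusted p = 0.218). *Ampd3* was 38.1 and 42.1 CPM and then 47.7 and 50.4 CPM (adjusted p = 0.608). Within the family, *Ampd2* took 59.4% ± 1.62 of the summed TPM at d0 in WT and 44.5% ± 8.75 at d8, while *Ampd1* took 4.03% ± 2.88 at d8. The creatine transporter *Slc6a8* was 194 and 93.7 CPM in WT at d0 and 250 and 204 CPM at d8 (1.58-fold, adjusted p = 0.232). The WT log2 fold change was 0.66, but 1.26 and called without WT d0 replicate 1 (adjusted p = 0.0294) and 0.24 without WT d0 replicate 2. In AMPK-KO *Slc6a8* was 257 and 206 CPM at d0 and 401 and 325 CPM at d8 (1.57-fold, adjusted p = 0.255). Neither pair of groups overlapped, a property shared by 61.5% of all genes tested in WT and 59.1% in AMPK-KO.

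The other genes of these pathways were read from lists that do not contain the 10 genes. Of 7 tested genes for creatine synthesis and for the mitochondrial partners of creatine kinase, 1 fell in WT at d8, *Slc25a5*, an ADP/ATP carrier (log2 fold change −1.04 ± 0.20, SE, adjusted p = 0.0238), and none rose. In AMPK-KO 2 fell, *Slc25a5* (−1.19, adjusted p = 0.0227) and *Gatm*, the enzyme of the first step of creatine synthesis (−0.96, adjusted p = 0.0236). The purine nucleotide cycle turns IMP back into AMP. Of 10 tested genes of this cycle and of adenylate salvage, 1 rose in WT, *Adss1*, the muscle adenylosuccinate synthase of the cycle (2.05 ± 0.24, adjusted p = 0.0143). *Adss2*, its nonmuscle counterpart (−1.21, adjusted p = 0.0175), *Aprt*, which salvages adenine (−1.10, adjusted p = 0.0158), and *Ada*, adenosine deaminase (−1.69, adjusted p = 0.0212), fell in WT. In AMPK-KO none rose and 2 fell, *Aprt* (−0.997, adjusted p = 0.0247) and *Ada* (−1.78, adjusted p = 0.0256), and *Adss1* stood at 0.78 (adjusted p = 0.0835). Of the muscle differentiation genes, 14 of 19 rose in WT and 15 of 19 in AMPK-KO, with medians of 5.22 and 7.74. Cardiac markers moved with them. *Tnnt2* rose in WT (3.36, adjusted p = 0.0197) and in AMPK-KO (2.46, adjusted p = 0.0457), *Tnni3* in AMPK-KO (5.13, adjusted p = 0.0314), and their part in the results was not tested.

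The second comparison asks what the loss of AMPK changed at each day. At d0, 0 of the 8 tested genes were called, against 3.52% of all genes (505 genes, but 17 without AMPK-KO d0 replicate 1 and 46 without replicate 2), and none had an unadjusted p under 0.05. DESeq2 also called none of them. The groups did not overlap for 5 of the 8 genes, against 49.4% of all genes. *Slc6a8* was 194 and 93.7 CPM in WT and 257 and 206 CPM in AMPK-KO (log2 fold change 0.69 ± 0.34, SE, adjusted p = 0.302). *Ampd2* was 54.3 and 54.9 CPM in WT and 79.0 and 70.7 CPM in AMPK-KO (0.45 ± 0.22, adjusted p = 0.305). *Ckb* was 68.6 and 128 CPM in WT and 21.8 and 76.1 CPM in AMPK-KO, with overlap (2.01-fold lower on average, adjusted p = 0.375). The counts of *Ckm* were 11 and 27 in WT against 4 and 0 in AMPK-KO, those of *Mb* 14 and 19 against 5 and 0. Both were lower in both AMPK-KO libraries, at levels that rest on few reads (adjusted p = 0.347 and 0.446). In the same comparison 4 of 19 muscle differentiation genes fell, *Myog* (−5.36, adjusted p = 0.0116), *Myod1* (−3.29, adjusted p = 0.0147), *Mymk* (−5.64, adjusted p = 0.0331) and *Mymx* (−3.99, adjusted p = 0.0447), which encode regulators of myogenesis and of myoblast fusion.

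At d8, 0 of the 8 genes were called between AMPK-KO and WT, against 5.35% of all genes (766 genes, but 108 without WT d8 replicate 1 and 107 without replicate 2), and 2 had an unadjusted p under 0.05, *Ckm* and *Ampd2*. DESeq2 called none. *Ckm* was 31.1 and 94.7 CPM in WT and 91.3 and 407 CPM in AMPK-KO, 3.96-fold higher on average with overlapping groups (log2 fold change 1.99 ± 0.81, SE, adjusted p = 0.205). It was higher in AMPK-KO within both replicate numbers, and with the replicate number as a block it was called (1.85, adjusted p = 0.0459), although no label says that the numbers pair the libraries. It was 0.51 without AMPK-KO d8 replicate 2, 2.71 without AMPK-KO d8 replicate 1 (adjusted p = 0.120) and 3.02 without WT d8 replicate 2. *Mb* was 80.0 and 212 CPM in WT and 56.4 and 349 CPM in AMPK-KO (0.47 ± 0.82, adjusted p = 0.773), and its value was −1.40 without AMPK-KO d8 replicate 2 and 1.28 without AMPK-KO d8 replicate 1 (adjusted p = 0.350). The groups did not overlap for 3 genes, against 57.9% of all genes. These were *Slc6a8* (250 and 204 CPM in WT, 401 and 325 CPM in AMPK-KO, 1.60-fold, adjusted p = 0.284), *Ampd2* (47.4 and 32.3 CPM, then 65.5 and 49.8 CPM, 1.45-fold, adjusted p = 0.216) and *Ak1* (257 and 261 CPM, then 166 and 230 CPM; −0.39 ± 0.21, adjusted p = 0.310). *Ampd3* was 47.7 and 50.4 CPM in WT and 48.1 and 110 CPM in AMPK-KO. Its log2 fold change was 1.19 (adjusted p = 0.0372) without AMPK-KO d8 replicate 1 and −0.063 (adjusted p = 0.896) without replicate 2.

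*Ckm* was set against the muscle differentiation genes at d8. The fitted log2 fold change of AMPK-KO against WT was lower than that of *Ckm* for all 19 muscle differentiation genes tested and below 0 for 15 of them, with a median of −0.83 against 0.04 over all genes. Of these, *Cav3*, the muscle caveolin, was called (−6.66 ± 0.91, SE, adjusted p = 0.0128), and 3 abundant genes that were not called stood at 0.18 (*Acta1*), −0.24 (*Mylpf*) and −0.49 (*Des*). Within each library the log2 CPM of *Ckm* was set against the mean log2 CPM of the 19 genes, both with 1 CPM added. The difference was −3.18 and −2.36 in the WT d8 libraries and 0.65 and 0.42 in the AMPK-KO d8 libraries. For *Mb* it was −1.84 and −1.21 in WT, against −0.04 and 0.19 in AMPK-KO. The same difference at d0 was −3.48 and −2.63 for *Ckm* in WT, against −1.52 and −1.75 in AMPK-KO. With *Ckm* and *Mb* at 0 to 5 counts in AMPK-KO at d0, that value is set by the added 1 CPM and by the lower mean of the muscle genes, and it says nothing of *Ckm* or *Mb*. At d8 the AMPK-KO libraries did not overlap the WT libraries in either measure, also for replicate 1, the library with few muscle transcripts. In that library *Ckm* (6.53) lay between the WT values (5.01 and 6.58), and *Mb* (5.84) lay below both (6.34 and 7.73). Its mean of the muscle genes was 5.88, against 8.18 and 8.94 in WT, so this lower mean sets its differences. Groups of 2 allow no exact test below p = 0.05 and none was made.

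**Figure D4:**
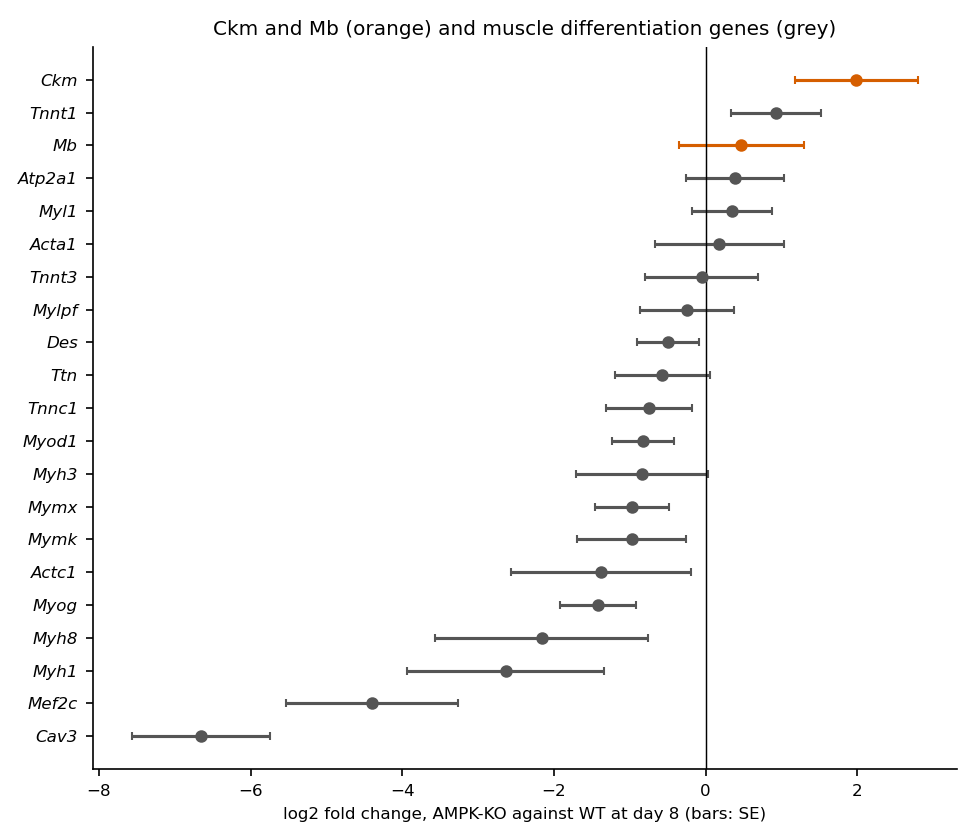
Fitted log2 fold change of AMPK-KO against WT at d8, with SE bars, for *Ckm* and *Mb* (orange) and the 19 tested muscle differentiation genes (grey). *Ckm*, at 1.99, lies above all 19 grey points, which run from −6.66 for *Cav3* to 0.93.

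Other genes that differed at d8 were *Gatm*, lower in AMPK-KO (−1.24 ± 0.17, adjusted p = 0.0128), *Adss1*, lower (−1.90 ± 0.24, adjusted p = 0.00982), and *Aprt*, higher (0.94 ± 0.18, adjusted p = 0.0322). They were 1 of 7 genes of the creatine list and 2 of 10 of the purine list. Among the other globins only *Hba-a1* passed the filter. It was 0.826 and 0.516 CPM in WT at d8 and 39.0 and 103 CPM in AMPK-KO (adjusted p = 0.0507), while *Hbb-bt* had no count and *Hbb-bs* at most 2 counts in any library. *Hba-a1* and *Hba-a2* are near-identical copies, so the split of reads between them is uncertain. Neuron markers moved with the genotype: the summed level of the 4 was 103 to 281 CPM in the WT libraries and 1.10 to 11.5 CPM in the AMPK-KO libraries, with *Tubb3* the most abundant and *Rbfox3* and *Snap25* at 0 counts in all 8. Their part in the results was not tested.

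Whether the change from d0 to d8 differed between genotypes was tested directly. No gene of the 14329 (0%) was called by edgeR (729 had an unadjusted p under 0.05), and DESeq2 called 54 genes, none of the 10. For *Ckm* the difference was 5.21 ± 1.89 (SE) on the log2 scale, higher in AMPK-KO (unadjusted p = 0.0257, adjusted p = 0.947), a value that rests on the 4 and 0 counts at d0. For *Slc6a8* the difference was −0.01 ± 0.47 and for *Ampd2* 0.08 ± 0.32.

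The third comparison asks whether the phosphomimetic TET2-S97E changed the energy genes in AMPK-null myoblasts. Of the 7 genes tested 1 was called, *Ckm*, which was higher, against 6.98% of all genes called and 3.71% called higher. The 6.98% were 938 genes. With 1 library left out, from 304 (without TET2-WT clone 2 replicate 1) to 1092 (without TET2-WT clone 2 replicate 2) were called. The median of the 7 was 0.43, against 0.01 over all 13433 genes. *Ckm* was 0.543 and 0.976 CPM in TET2-WT clone 1, 1.42 and 13.4 CPM in TET2-WT clone 2, 201 and 79.7 CPM in TET2-S97E clone 1, and 132 and 19.8 CPM in TET2-S97E clone 2. All 4 TET2-S97E libraries lay above all 4 TET2-WT libraries, the closest being 19.8 against 13.4 CPM. The share of counts from mitochondrial genes also differed among these libraries, with overlap between the genotypes. It was 1.14%, 1.00%, 1.38% and 2.14% in the TET2-WT libraries, highest in clone 2 replicate 2, and 2.03% to 2.29% in the TET2-S97E libraries, and its part in the result was not tested. The means were 108 ± 76.9 and 4.09 ± 6.24 CPM (SD, n = 4), 26.4-fold apart (log2 fold change 4.71 ± 1.08, SE, adjusted p = 0.0321). Libraries of 1 clone are not independent of each other. With counts summed per clone the log2 fold change was 4.40 and the adjusted p = 0.330, a fit in which no gene at all was called. With clone as a random effect in limma-voom it was 5.39 with an adjusted p = 0.118. With a replicate block it was 4.82 with an adjusted p = 0.0649. TET2-WT clone 2 replicate 2 set much of the TET2-WT mean, and without it the change was 6.78 (adjusted p = 0.00715). Without TET2-S97E clone 2 replicate 2 it was 5.06 (adjusted p = 0.0253). The call was lost when TET2-WT clone 1 replicate 1 (0.0785), TET2-WT clone 1 replicate 2 (0.0853), TET2-WT clone 2 replicate 1 (0.0961), TET2-S97E clone 1 replicate 1 (0.0703) or TET2-S97E clone 2 replicate 1 (0.0544) was left out, each value being the adjusted p of the edgeR test.

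*Mb* followed the same order of libraries within TET2-WT. It was 0.0904 and 0.158 CPM in TET2-WT clone 1, 0.916 and 11.7 CPM in clone 2, 56.7 and 17.4 CPM in TET2-S97E clone 1 and 113 and 21.9 CPM in clone 2, again without overlap. The means were 16.3-fold apart (4.01 ± 1.25, SE, adjusted p = 0.0891), and without TET2-WT clone 2 replicate 2 the gene was called (7.16, adjusted p = 0.00793). *Slc6a8* was 187, 207, 192 and 206 CPM in the TET2-WT libraries and 280, 279, 269 and 238 CPM in the TET2-S97E libraries, 1.35-fold higher without overlap (0.43 ± 0.11, SE, adjusted p = 0.0501). The groups were without overlap for 3 of the 7 tested genes, against 15.3% of all genes. *Ampd1*, too low for the fit, had 0, 2, 0 and 0 counts in TET2-WT and 19, 6, 3 and 2 counts in TET2-S97E. *Ak1* was 148, 184, 107 and 94.2 CPM in TET2-WT and 197, 149, 188 and 153 CPM in TET2-S97E, with overlap (0.37 ± 0.21, SE, adjusted p = 0.344).

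**Figure D5:**
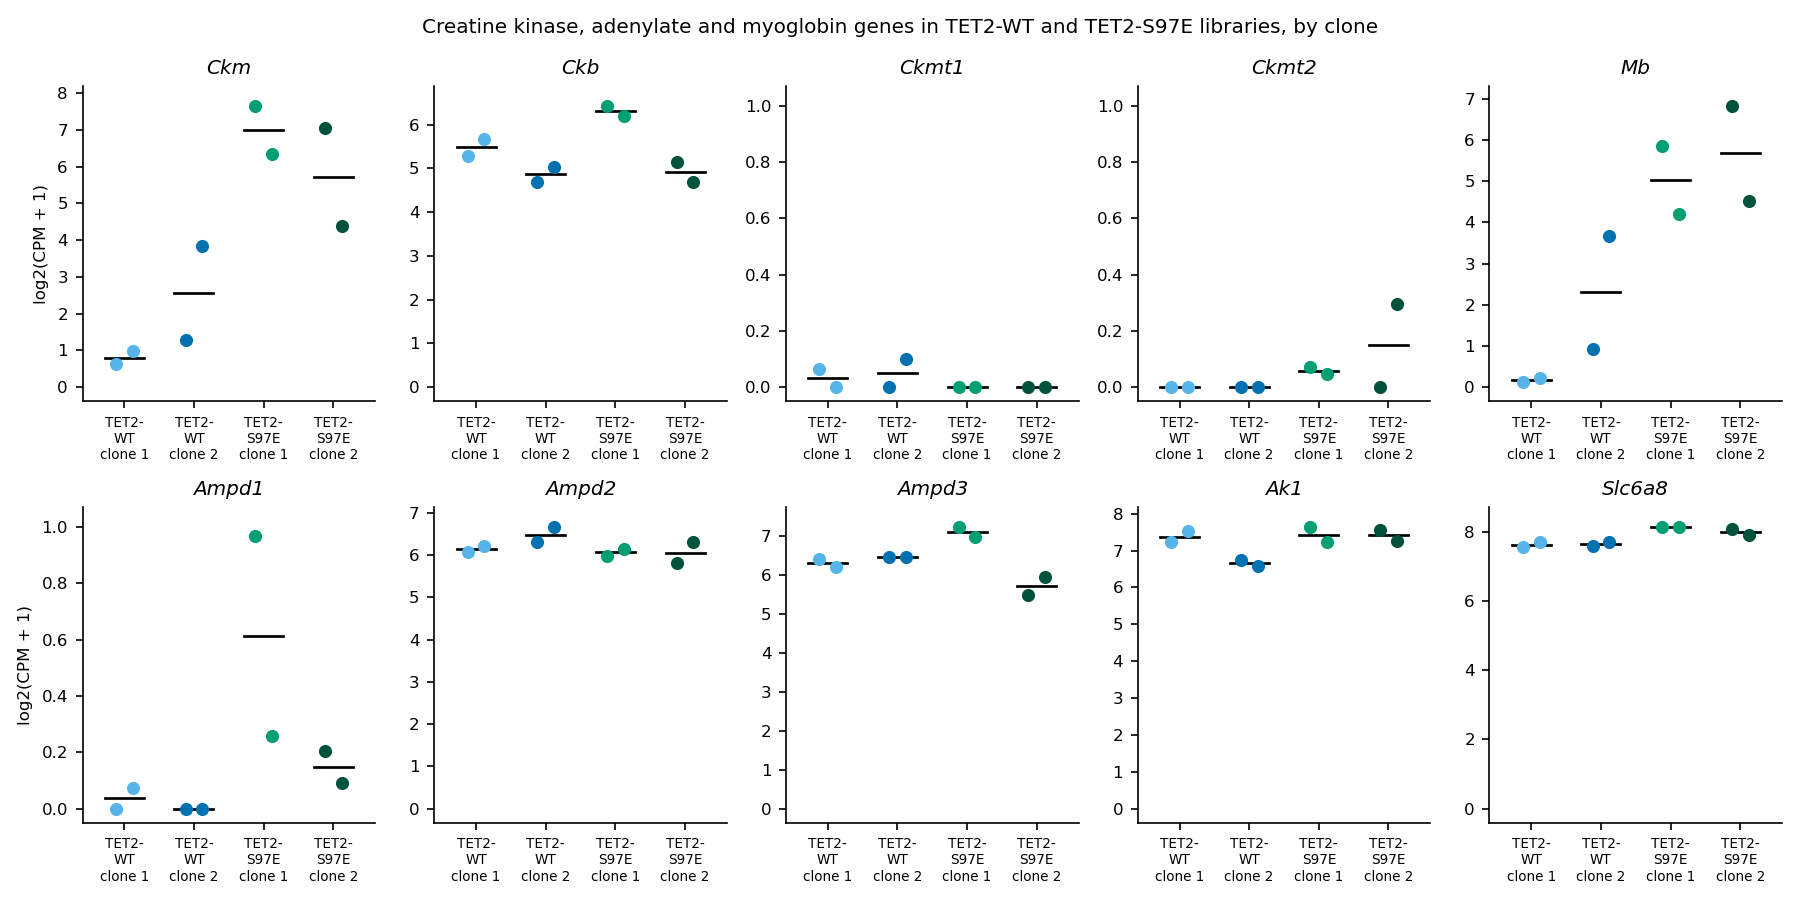
Level of each gene as log2(CPM + 1) in the 8 TET2 libraries by clone; points are libraries, replicate 1 at the left, and lines are means of 2. For *Ckm*, *Mb* and *Slc6a8* every TET2-S97E point lies above every TET2-WT point; *Ckb* and *Ampd3* are lower in TET2-S97E clone 2 than in clone 1.

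The creatine kinase mixture differed between the genotypes in the same way. *Ckm* took 1.40% and 1.89% of the summed creatine kinase TPM in TET2-WT clone 1, 5.37% and 29.5% in TET2-WT clone 2, 70.03% and 52.4% in TET2-S97E clone 1 and 79.4% and 44.0% in TET2-S97E clone 2. *Ckmt2* had 7 counts in TET2-S97E clone 2 replicate 2 and at most 1 in the other 7 libraries. Muscle genes moved with this result: 13 of 17 tested were called higher in TET2-S97E, with a median log2 fold change of 3.98, among them *Mymk* (5.86, adjusted p = 0.00832), *Tnnc1* (4.75, adjusted p = 0.0160), *Actc1* (3.57, adjusted p = 0.0160) and *Mef2c* (1.98, adjusted p = 0.0179). The summed level of the muscle list was 954, 1222, 1003 and 1912 CPM in TET2-WT and 12776, 6073, 4171 and 1376 CPM in TET2-S97E, so the groups overlapped in that sum. The cardiac markers also moved, from 5.36 to 45.2 CPM summed in TET2-WT to 89.1 to 424 CPM in TET2-S97E. *Tnnt2*, which immature skeletal muscle also uses, was the most abundant of them, and *Nppa* had at most 3 counts. The 4 smooth muscle markers summed to 371 to 701 CPM in TET2-WT and 1013 to 2033 CPM in TET2-S97E, nearly all of it *Acta2*, with *Myh11* at 1 to 16 counts. The part of these genes in the result was not tested. Of the pathway lists, none of 7 genes of creatine synthesis and partners was called, although all 7 had a positive log2 fold change (median 0.36). None of 10 purine genes was called.

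Clones of the same genotype differed as well. Between the TET2-S97E clones 2 of 7 genes were called, both lower in clone 2, against 6.17% of all genes called and 2.82% called lower. *Ckb* was 85.2 and 71.9 CPM in clone 1 and 34.1 and 24.6 CPM in clone 2 (−1.42 ± 0.23, SE, adjusted p = 0.00811). *Ampd3* was 150 and 127 CPM in clone 1 and 43.7 and 61.2 CPM in clone 2 (−1.39 ± 0.19, adjusted p = 0.00386). Both were called whichever library was left out. The genotype values of these genes depended on the clone: without TET2-S97E clone 1, *Ampd3* stood at −0.69 and *Ckb* at −0.32 against TET2-WT, and without TET2-S97E clone 2 both were called higher, at 0.72 (adjusted p = 0.0280) and 1.12 (adjusted p = 0.0294). Among muscle genes 4 of 17 were lower in TET2-S97E clone 2, *Myod1* (−2.36, adjusted p = 0.00117), *Des* (−1.59, adjusted p = 0.0140), *Mymx* (−2.59, adjusted p = 0.0274) and *Myh3* (−2.59, adjusted p = 0.0293). Single markers of other cell types were called too, at low levels. The endothelial *Cdh5* was lower in clone 2 (14 and 43 counts, then 0 and 1, adjusted p = 0.0143), the adipocyte *Fabp4* higher (0 and 2 counts, then 30 and 29, adjusted p = 0.0433) and the neuron gene *Tubb3* higher (8 and 19 counts, then 84 and 90, adjusted p = 0.0359). Their part in the results was not tested. Between the TET2-WT clones 0 of 7 genes were called by edgeR, against 0.858% of all genes, with 4 at an unadjusted p under 0.05. DESeq2 called 2 of them, *Mb* (5.62, adjusted p = 0.00674) and *Ak1* (−0.72, adjusted p = 0.0291). TET2-WT clone 2 replicate 2 set much of the *Mb* and *Ckm* values. The *Ak1* value moved less, from −0.73 with that library to −0.64 without it (edgeR). In the edgeR fit *Mb* was 5.54 (adjusted p = 0.126) with that library and 2.74 (adjusted p = 0.630) without it, and *Ckm* 3.23 (adjusted p = 0.194) and 0.82 (adjusted p = 0.862). *Ak1* was 148 and 184 CPM in TET2-WT clone 1 and 107 and 94.2 CPM in clone 2.

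The genes whose pattern was most like that of 4 of these genes were sought by Pearson's r of log2(CPM + 1) over the 8 WT and AMPK-KO libraries, among 14329 genes. Since 4 of the libraries are d0 and 4 are d8, the points share that step between the days, and r is given as a description. For *Ckm* they were *Akt2* (0.997), *Myl6b* (0.989) and *Rab5b* (0.988). For *Mb* they were *Unc45b* (0.998), *Gpr108* (0.996) and *Myom1* (0.994). *Ckb* was closest to *Sema6a* (0.974), *Cyp39a1* (0.967) and *Heyl* (0.967), and *Slc6a8* to *Naalad2* (0.983), *Zfp951* (0.983) and *Alkbh6* (0.982). Between *Ckm* and *Mb* themselves r was 0.981, between *Mb* and *Ak1* 0.924, and between *Ckm* and *Ampd2* −0.574.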

How the data were processed

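Paired-end reads of total RNA were processed by the authors. Per the labels' processing notes and the study's methods, reads were demultiplexed with bcl2fastq 2.17, trimmed with Trim Galore 0.4.5, aligned to GRCm38 (mm10) with STAR 2.5.3a and assigned to GENCODE M12 genes with featureCounts 1.5.3. The deposited values are raw whole-number counts per gene, one table per experiment, not normalized. Identifiers were matched to GENCODE M21 (49326 of 49585 found), and merged exon lengths gave TPM.

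Counts were tested in R 4.3.3 with edgeR 4.0.16 (TMM, filterByExpr, glmQLFit, glmQLFTest), with Benjamini-Hochberg adjustment over all genes tested in a comparison. The WT and AMPK-KO libraries entered 1 fit (4 residual degrees of freedom), the TET2 libraries a genotype fit (6) and a clone fit (4). Scripts were tested on simulated data. A fold against a group whose libraries all had at most 3 counts was taken as a lower bound. Replicates differed beyond counting noise (chi-square per degree of freedom 31.8 to 117). Only counting noise enters that value, so it cannot tell separate cultures from repeated preparations of 1 culture. Alternatives were DESeq2 1.42.0 (Wald test or its size factors), upper-quartile factors, other filters, mitochondrial and abundant noncoding genes left out, only the groups compared, a replicate block, each library or clone left out, counts summed per clone, and limma-voom (limma 3.58.1) with clone as a random effect. Where a library was left out of a group of 2, the lone library was assumed to vary like the other groups.

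The genes and lists were chosen with earlier results of these data known. Named list genes were at most 4 per list and comparison, those called with the lowest adjusted p, otherwise the most abundant; like patterns were the 3 highest correlations. *Pnp*, in the purine list, was not matched. The list of other adenylate kinases is not reported here.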

Additional observations from a re-analysis of the deposited data

Results flagged for a closer look

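Sets of 4 libraries were formed for 10 genes in 2 TET2 genotypes, and 16 sets had more than 3 counts in a library. In 3 of these 16 the highest library stood apart by Dixon's test, whose 95% critical value for 4 is 0.829. Chance gives about 1 in 20 for 4 independent values from a normal distribution. Libraries of 1 clone are not independent and CPM need not be normally distributed, so 3 of 16 cannot be set against that rate. For *Ckm* the gap of TET2-WT clone 2 replicate 2 (13.4 CPM) to the next TET2-WT library was 0.932 of the whole range, and for *Mb* (11.7 CPM) it was 0.929 of the range. The same library had the highest summed muscle gene level of the TET2-WT libraries. For *Ampd1* the gap of TET2-S97E clone 1 replicate 1 (0.958 CPM, 19 counts) was 0.855 of the range. The causes were not tested.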

How the results depend on the processing

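Of the fitted log2 fold changes of single genes, 436 kept their direction and their side of the threshold under an alternative that left out no single library, 33 gained a call, 5 lost one and 7 changed sign. Without a filter on low counts the genes called were 4 for AMPK-KO against WT at d0, 3 at d8, 6 for d8 against d0 in WT and 6 in AMPK-KO, 2 for the difference of those changes, 2 for TET2-S97E against TET2-WT, 4 between the TET2-S97E clones and 3 between the TET2-WT clones. With at least 10 counts in every library, a filter that leaves out *Ckm* and *Mb* in the first experiment, d8 against d0 gave 1 in WT and 0 in AMPK-KO. DESeq2 called 4 genes for d8 against d0 in WT (*Ampd1* added, adjusted p = 0.0298), 4 in AMPK-KO (*Ak1* and *Ckb* added), 4 for TET2-S97E against TET2-WT (*Mb*, adjusted p = 0.0397, and *Slc6a8*, adjusted p = 0.0110, among them) and 2 between the TET2-WT clones. For TET2-S97E against TET2-WT, 0 genes were called with counts summed per clone, 0 with limma-voom and clone as a random effect, 0 without TET2-WT clone 1, 2 without TET2-WT clone 2, 0 without TET2-S97E clone 1 and 3 without TET2-S97E clone 2. The cause of these changes was not tested.

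Replicates with the same number share only that number in the labels. Library measures went with the number as well. In every TET2 clone replicate 2 had more counts, 27394400 to 37790400 against 19801900 to 21457000 in replicate 1. In every WT and AMPK-KO group replicate 1 had the higher share of mitochondrial counts, 0.977% to 1.43% against 0.568% to 0.970%. Whether the number marks a batch was not tested. The correlation of their deviations from the group means was 0.129 to 0.392 in the first experiment and −0.073 to 0.555 in the TET2 libraries. With a replicate block, 1 gene was called between AMPK-KO and WT at d8 (*Ckm*, 1.85, adjusted p = 0.0459, with *Ckb* at −0.010), and 0 between the TET2 genotypes (*Ckm*, adjusted p = 0.0649). The block also added *Ampd1* for d8 against d0 in WT (adjusted p = 0.0369) and *Ak1* in AMPK-KO (adjusted p = 0.0469).

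When single libraries were left out, the genes called ranged from 0 to 1 for AMPK-KO against WT at d8, 0 to 4 for d8 against d0 in WT and in AMPK-KO, 0 to 2 between the TET2 genotypes and 0 to 1 between the TET2-WT clones. They were 0 throughout at d0 and for the difference of changes, and 2 throughout between the TET2-S97E clones. Log2 fold changes that changed sign ranged as follows. Those of *Ampd1* against a d0 group (0 to 3 counts) are fitted values, some against a library at 0 counts, and measure no size of change. For AMPK-KO against WT at d0 *Ak1* ran from −0.31 to 0.057 and *Ampd1* from −3.79 to 3.20. At d8 *Ampd1* ran from −5.69 to 0.051, *Ampd3* from −0.063 to 1.19, *Ckb* from −0.33 to 0.43 and *Mb* from −1.40 to 1.35. For d8 against d0, *Ckb* ran from −0.050 to 0.88 in WT, and in AMPK-KO *Ampd1* ran from −0.25 to 7.65 and *Ampd3* from −0.031 to 1.20. For the difference of changes *Ampd1* ran from −5.07 to 2.85, *Ampd2* from −0.14 to 0.42, *Ampd3* from −0.32 to 0.94 and *Slc6a8* from −0.60 to 0.38. Between the TET2 genotypes *Ampd3* ran from −0.11 to 0.42, and without the whole of TET2-S97E clone 1 it was −0.69, with *Ckb* at −0.32. Between the TET2-S97E clones *Ak1* ran from −0.22 to 0.21, *Ampd2* from −0.24 to 0.19 and *Mb* from −0.81 to 1.98. *Ampd2* was there −0.0088 with DESeq2 size factors, −0.011 with DESeq2 and −0.0023 without a filter. Between the TET2-WT clones *Slc6a8* ran from −0.079 to 0.082 and was −0.013 with upper-quartile factors.

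Over all genes, DESeq2 called 1325 against 505 at d0, 1569 against 766 at d8, 2394 against 1398 for d8 against d0 in AMPK-KO, 1910 against 938 between the TET2 genotypes, 1355 against 892 between the TET2-S97E clones and 895 against 124 between the TET2-WT clones. Without a filter on low counts 2026 were called at d0, 2503 at d8, 3293 against 1771 for d8 against d0 in WT, 3039 in AMPK-KO, 449 against 0 for the difference of changes, 1680 between the TET2-S97E clones and 1627 between the TET2-WT clones. The filter at 10 counts gave 204 at d0 and 277 at d8. With only the groups compared in the fit, 335 were called at d0 and 788 for d8 against d0 in AMPK-KO. The block gave 1540 between the TET2-S97E clones and 677 between the TET2-WT clones. Between the TET2 genotypes 0 were called with counts summed per clone, 166 by limma-voom, 183 without TET2-WT clone 1 and 625 without TET2-WT clone 2. With 2 libraries a group and *Ckm* and *Mb* at 0 to 5 counts in AMPK-KO myoblasts, depth limits the fold changes of these genes, and of *Ampd1*, against that group.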
